A study of Drosophila melanogaster with 39 samples.

Results

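The leg discs of the 3 thoracic segments of Drosophila melanogaster were set against each other through a partner they share, the wing disc. Of the 39 arrays of the series, 9 paired a wing disc with a leg disc, and their labels name the leg as prothoracic (leg 1), mesothoracic (leg 2) or metathoracic (leg 3), on 3 arrays each. All of these discs came from wild-type larvae of the OregonR strain. Single males in the late wandering stage were used, picked by how much of a dyed meal was left in the gut, and the wing disc and the leg disc on an array came from the same larva. The discs were washed to lower the load of fat body cells, RNA was taken from single discs, and it was amplified in 2 linear rounds before labelling with Cy3 and Cy5. On 4 other arrays a prothoracic leg disc of an OregonR male was paired with a reference, a pool of amplified RNA from leg discs of all 3 segments of males and females in equal parts. The other arrays of the series, from a study of cells that switch from leg to wing fate, served here to estimate the spread of each probe. By their titles they held wg-induced prothoracic leg discs, regenerating discs, and transdetermining (TD) cells. Dorsal (D) and ventral (V) cells, each labelled wg or wild type, were on them too. The labels give the difference between wing and leg as the purpose of the 9 arrays, and state no question about the segments.

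Imaginal discs are the larval sacs of epithelium that make the adult appendages, and the leg discs of the 3 thoracic segments are serial homologues patterned by the same axes. Hox genes, which encode homeodomain transcription factors, give each segment its identity: Sex combs reduced (Scr) acts in the prothorax, Antennapedia (Antp) in the mesothorax and Ultrabithorax (Ubx) in the metathorax. In males the prothoracic leg carries the sex comb, a row of modified bristles that needs Scr. Discs also hold cells that are not epithelium, among them the myoblasts that lie beneath the wing disc's notum and inside the leg discs, and tracheal cells.

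Each value is the log2 ratio of the leg disc over the wing disc, the direction the labels give for all 9 arrays, with values above 0 where the leg held more transcript, and a difference between segments is the ratio of one leg less the ratio of another. If the wing discs were alike, such a difference belongs to the legs. The ratios alone cannot show this, and the part of the leg and the part of the wing in a difference cannot be told apart. Fewer cells of a type and less RNA per cell cannot be told apart either. Whether discs of one larva were used on more than 1 array is not stated. The p-values come from limma on all 39 arrays and measure the spread between arrays.

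The arrays held 5864 to 9301 values, or 35.8 to 56.8 percent of the gene probes, and 4526 probes of 3883 genes had a value on all 9. One array stood apart. Leg 1 replicate 1 deviated from the mean of the 9 arrays with an SD of 0.644 over probes, against 0.240 to 0.426 for the other 8 arrays, and its median correlation with them was 0.203. Its ratios correlated at 0.00 and -0.02 with the other leg 1 arrays. Arrays of one segment were no more alike than arrays of different segments: the median Pearson's r was 0.375 over the 9 pairs within a segment and 0.488 over the 27 pairs between segments, or 0.426 and 0.519 without that array. The 3 arrays whose slide labels start with 6, 1 for each segment, had a median r of 0.728 among themselves. Every segment has 1 array of that prefix and 2 of prefix 5, so the prefix does not run with the segment. The wing disc was probe 1 on 2 arrays of leg 1 and of leg 3 and on 1 array of leg 2, and the fit holds a term for this.

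**Figure D1:**
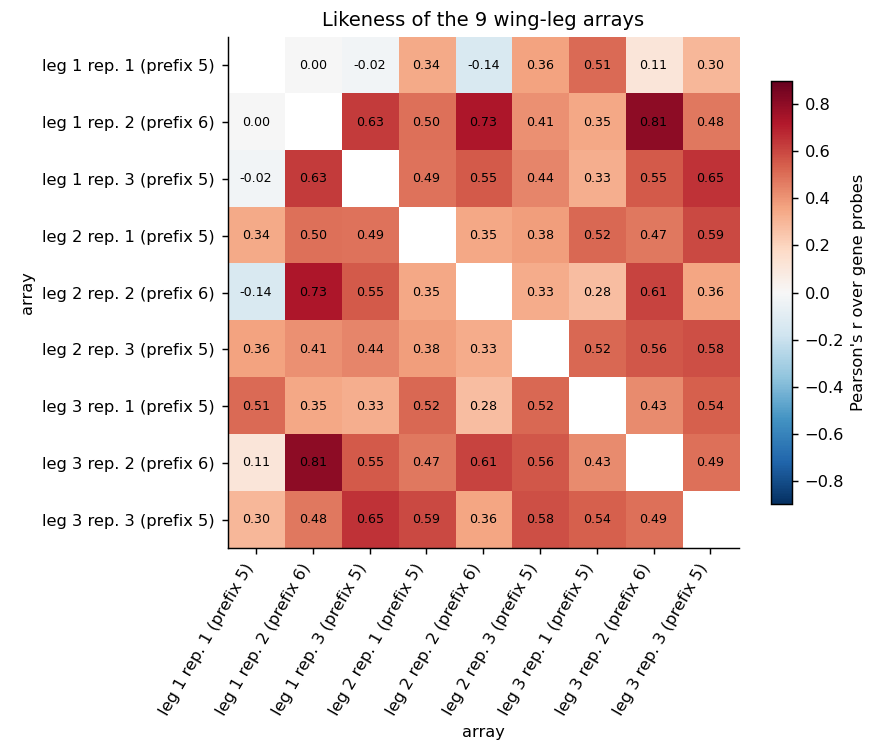
Pearson's r between every pair of the 9 wing-leg arrays over the gene probes, with the arrays in the same order on both axes and the first digit of the slide label in brackets. Leg 1 replicate 1 gives the palest row, down to -0.14, and the highest value, 0.81, is between leg 1 and leg 3 arrays of prefix 6.

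Few probes passed the test between segments. For leg 1 minus leg 2, limma called 1 of 7121 probes (0.014%) at an adjusted p under 0.05, and 81 had an unadjusted p under 0.05. None passed for leg 1 minus leg 3 (0% of 6540 probes, 56 at an unadjusted p under 0.05) or leg 2 minus leg 3 (0% of 6535, 58 unadjusted). With each segment set against the mean of the others, 6401 probes were tested: none passed for leg 1 (0%, 71 unadjusted), 2 for leg 2 (0.0312%, 56 unadjusted) and none for leg 3 (0%, 47 unadjusted). These comparisons share their arrays. The shares at an unadjusted p under 0.05 lay between 0.734 and 1.14 percent, and between 0.858 and 1.4 percent in fits of the 9 arrays alone. They were 2.59 to 3.5 percent with the arrays scaled to one spread. For leg 1 against the others the share was 1.11 percent, and it was 3.06 percent without leg 1 replicate 2 and 2.98 percent without leg 1 replicate 3. All of these shares lie below 0.05, the share to be had where no probe differs and the p-values are exact. The p-values thus ran large, and few calls do not show that the segments are alike. The median SD between arrays of one segment was 0.323 log2 units, against 0.21 between segments on the same scale. The median residual SD of the fit to 39 arrays, on which the test builds, was larger, at 0.393. Of the probes, 21.4 percent varied more between segments than within them. Noise alone makes some probes do so, and the share to be had without segment differences was not computed. The 21.4 percent is thus no share of probes that differ by segment. The 3 calls fell on 2 genes, Cpr64Aa and Him.

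Scr, the Hox gene of the prothorax, was measured on 8 of the 9 arrays, and its highest ratios were on the arrays labelled prothoracic. The log2 ratio of leg over wing was 0.63, 2.83 and 0.98 in leg 1, 0.08, 0.16 and -0.19 in leg 2, and 0.11 and 0.03 on the 2 leg 3 arrays with a value. All 3 leg 1 values lay above all 5 of the others, which sat near 0. Leg 1 exceeded the mean of legs 2 and 3 by 1.39 ± 0.30 (SE), a 2.61-fold difference with an adjusted p of 0.113 in limma. The size of the difference rests on single leg 1 arrays. Without leg 1 replicate 1, the array that stood apart, it was 1.84 with an adjusted p of 0.00866, and without leg 1 replicate 2, the one of prefix 6, it was 0.75. Within prefix 5 it was 0.82, and within prefix 6 it was 2.70. Another probe for Scr had values of 2.31 and 0.63 in leg 1, -0.06 on 1 leg 2 array and 0.49 on 1 leg 3 array.

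The other Hox genes give little to read. Of the 11 genes of the Hox complexes, 3 had enough values for a test: Scr, Antp and abdominal-A (abd-A), which acts in the abdomen. Antp had ratios of 0.16 and -0.07 in leg 1, -0.39 and 0.39 in leg 2, and -0.33 and -0.18 in leg 3. These values overlap between the segments, and no difference passed the test. Ubx, the Hox gene of the metathorax, had at most 1 value among the 9 arrays for a probe, so it cannot mark leg 3 here, and Abd-B had none. In a list of Hox cofactors and trunk selectors, 4 genes were tested and none passed: extradenticle (exd) and homothorax (hth), which bind DNA with Hox proteins, teashirt (tsh), a zinc finger protein of the trunk, and grain (grn), a GATA factor. The tsh ratio averaged 0.08 ± 1.32 in leg 1, -0.12 ± 0.86 in leg 2 and -0.96 ± 0.33 in leg 3 (SD, n = 3 each). Its arrays overlap, as the spread shows.

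**Figure D2:**
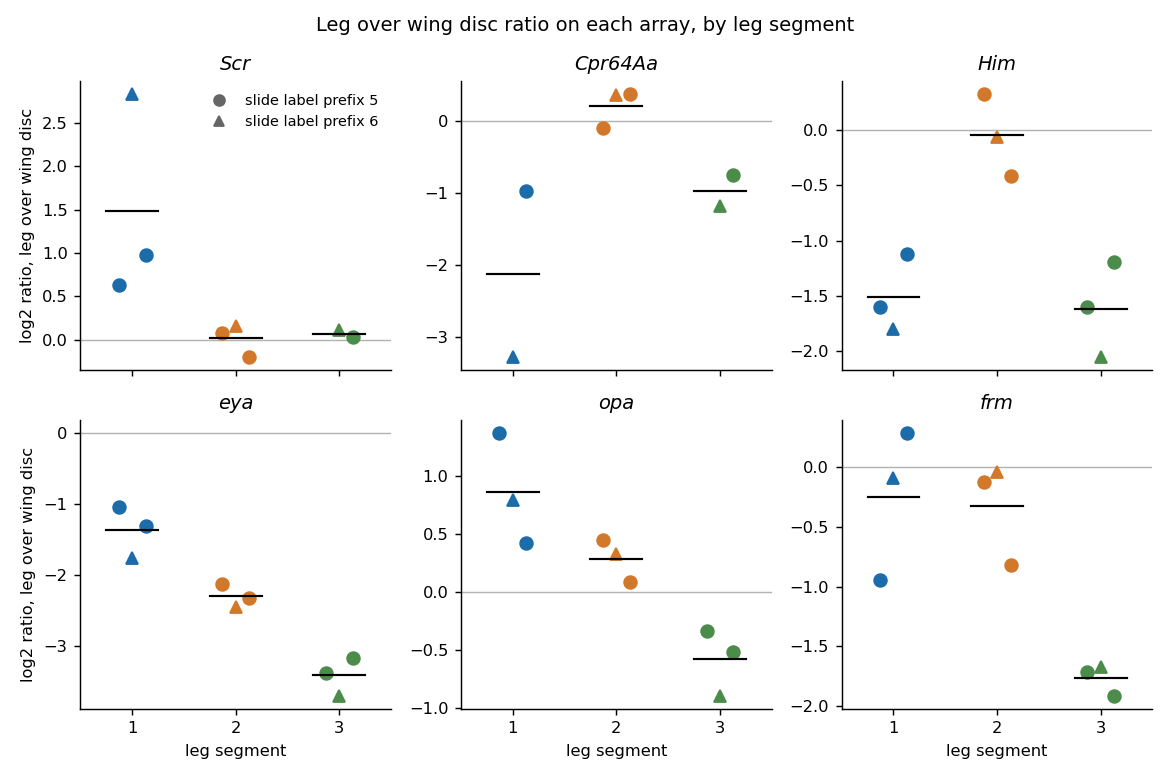
The log2 ratio of leg over wing disc on each array for 6 genes, by leg segment. Circles are arrays of slide prefix 5, triangles those of prefix 6, the bars are segment means, and missing points had no value. Scr is high in leg 1 (0.63 to 2.83), Cpr64Aa and Him are near 0 in leg 2 and below 0 in the others, eya descends from leg 1 to leg 3, and frm is lowest in leg 3.

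Cpr64Aa, which encodes a cuticle protein of the chitin-binding Rebers-Riddiford family, fell in leg 1 relative to leg 2. Its log2 ratios were -3.27 and -0.97 in leg 1, -0.10, 0.36 and 0.37 in leg 2, and -1.18 and -0.76 in leg 3, with no value on replicate 1 of legs 1 and 3. The 3 leg 2 arrays lay near 0, and the 4 measured arrays of legs 1 and 3 lay below them. Leg 1 minus leg 2 was -2.28 ± 0.37, or 4.87-fold lower in leg 1 (adjusted p = 0.0231), and leg 2 exceeded the mean of legs 1 and 3 by 1.71 ± 0.31 (adjusted p = 0.0498). The difference was much larger on the slides of prefix 6: leg 1 minus leg 2 was -3.63 there and -1.11 within prefix 5, with 1 leg 1 array in each. The call in leg 1 minus leg 2 was lost without any 1 of the leg 2 arrays, at adjusted p-values of 0.0848 to 0.140, and in the fits of the 9 arrays alone (adjusted p = 1.00). The call of leg 2 against the others was lost in those fits too. It was also lost with the slide prefix as a block (1.61, adjusted p = 0.0536), with probes averaged (adjusted p = 0.333), without replicate 1 of leg 1 (0.0622) or of leg 3 (0.0521), and without any 1 leg 2 array (adjusted p-values of 0.268 to 0.486). Without replicate 2 or 3 of leg 1 or of leg 3 it could not be tested. The call thus held in no fit with a single array left out.

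A second spot for Cpr64Aa ran the same way. It gave -3.49 and -0.32 in leg 1, -0.21, 0.56 and 0.37 in leg 2, and -1.85 and -0.31 in leg 3. Its own leg 1 minus leg 2 was -2.07 ± 0.56, with an adjusted p of 1.00. With both probes averaged the difference was -2.19 and its adjusted p 0.233. The neighbouring genes in the RefSeq annotation (Release 6), Cpr64Ab, Cpr64Ac and Cpr64Ad, had too few values on these arrays for a test. Of 100 genes named as cuticle proteins, 29 were tested for leg 1 minus leg 2: Cpr64Aa was the 1 that fell, none rose, and the median was 0.01, against -0.03 over all genes. In leg 2 against the mean of the others 17 were tested, 1 rose and none fell, with a median of -0.10 against 0.03 over all genes. Over all probes, 0.014% were called in leg 1 minus leg 2 and 0.0312% in leg 2 against the others. TwdlE, of the Tweedle family of cuticle proteins, differed by 1.05 ± 0.46 in leg 1 against the others and did not pass.

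Him, which holds back the differentiation of muscle progenitors, was higher in leg 2. Its log2 ratios were 0.32, -0.06 and -0.41 in leg 2, against -1.60, -1.80 and -1.12 in leg 1 and -1.60, -2.05 and -1.20 in leg 3. Every leg 2 array lay above every array of the other legs, where the wing disc held the higher level. Leg 2 exceeded the mean of legs 1 and 3 by 1.52 ± 0.27, a 2.86-fold difference (adjusted p = 0.0498). Cpr64Aa has the same adjusted p there, since the Benjamini-Hochberg step gave Him the value of the next probe. The calls of these genes in that comparison are therefore not separate. Among probes with all 9 values, 0.862% had leg 2 apart from both other legs. The difference was 1.33 within prefix 5 and 1.86 within prefix 6. Leg 2 minus leg 3 was 1.57 ± 0.31 (adjusted p = 0.0718), and leg 1 minus leg 2 was -1.46 ± 0.31 (adjusted p = 0.281). Without leg 1 replicate 1, the excess of leg 2 was 1.49 with an adjusted p of 0.0622. Of the other arrays, 6 more ended the call when left out, at adjusted p-values of 0.0521 to 0.594 and differences of 1.29 to 1.69, as did the fits of the 9 arrays alone.

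The other myoblast and muscle genes did not pass. Of 36 genes in the list, 13 were tested for leg 2 against the mean of the others: Him rose, none fell, 10 lay above 0 and the median was 0.31, against 0.03 over all genes. Over all probes, 0.0312% were called in that comparison. Mef2, the muscle-specifying MADS-box factor, differed by 0.62 ± 0.47, twist (twi), which marks the myoblasts of discs, by 0.38 ± 0.41, and zfh1, another factor of muscle progenitors, by -0.05 ± 0.18. All of these intervals of 1 SE but that of Mef2 take in 0, with an adjusted p of 1.00 for each. Over the 8 list members with all 9 values, the median ratio by array ran from -0.39 to 0.24 in leg 2, against -1.08 to -0.03 in leg 1 and -0.45 to -0.09 in leg 3. The lowest of these was again leg 1 replicate 1. The part of the myoblast share in the Him difference was not tested.

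**Figure D3:**
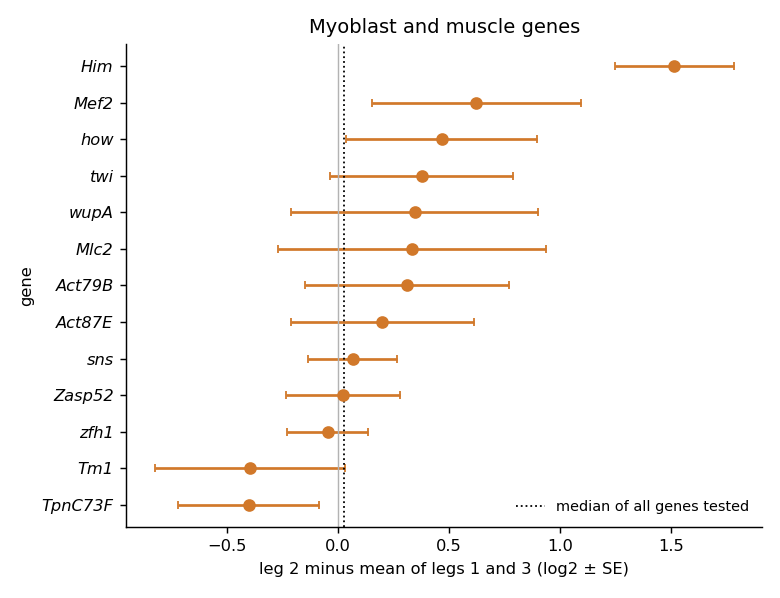
Leg 2 minus the mean of legs 1 and 3 for the 13 tested genes of the myoblast and muscle list, as log2 differences with their SE, each row a gene. Him stands at 1.52, the next gene, Mef2, at 0.62, and the dotted line marks the median of all genes at 0.03.

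A few genes ran through the segments in order. Eyes absent (eya), a phosphatase and transcriptional co-activator known for its part in eye specification, had log2 ratios of -1.04, -1.75 and -1.30 in leg 1, -2.12, -2.45 and -2.33 in leg 2, and -3.37, -3.69 and -3.16 in leg 3. No array of one segment overlapped those of another, and leg 1 stood above leg 2 and leg 2 above leg 3. All of the values are below 0, so the wing disc had the higher level throughout. Leg 1 minus leg 3 was 2.05 ± 0.40 (adjusted p = 0.244) and leg 1 minus leg 2 was 0.99 ± 0.41 (adjusted p = 1.00), so neither passed in the fit to all arrays. In the fit of the 9 arrays alone without the orientation term, leg 1 minus leg 3 had an adjusted p of 0.0129. With that term, which the main fit holds, the 9 arrays called CG4382 alone in this comparison and not eya. The eya difference of leg 1 minus leg 3 was 2.10 within prefix 5 and 1.94 within prefix 6. The residual SD of eya over the 39 arrays was 0.54, against 0.28 within the segments of these 9. Choosing a gene because these arrays do not overlap favours a small spread within segments, so the smaller SD is no separate evidence.

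Of the 4526 probes with all 9 values, 7 (0.155 percent) had no overlap between any of the 3 segments, in whatever order. How many would do so with the segment labels shuffled was not tested. Genes were named here and below partly because their arrays did not overlap, so that lack of overlap is no test of a segment pattern. The order was that of eya in 3 of them, and its reverse in 1. Besides eya they were rgn, PolA1, vir-1, CG15012, CG17683 and CG4766, the last 4 of which were named after their values were seen. CG4766 ran like eya, with -1.36, -1.69 and -1.29 in leg 1, -1.76, -2.64 and -2.04 in leg 2, and -3.24, -3.71 and -2.64 in leg 3. The lowest leg 2 array and the highest leg 3 array nearly touch. Regeneration (rgn), a C-type lectin gene, ran the other way, with -2.21, -1.57 and -1.22 in leg 1, -0.78, -0.66 and -1.08 in leg 2, and -0.63, -0.63 and 0.22 in leg 3. Its leg 1 minus leg 3 was -1.32 and did not pass (adjusted p = 1.00).

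Odd-paired (opa), a zinc finger factor of the Zic family, and frm were among the genes with the lowest ratios in leg 3. The opa ratio was -0.34, -0.90 and -0.52 in leg 3, against 1.37, 0.79 and 0.42 in leg 1 and 0.45, 0.32 and 0.08 in leg 2. Leg 3 was the one leg with less opa transcript than the wing disc, and its arrays lay apart from the other 6. Leg 3 minus the mean of legs 1 and 2 was -1.17 ± 0.35 (adjusted p = 1.00). The frm ratio was -1.72, -1.68 and -1.92 in leg 3, against -0.94, -0.09 and 0.29 in leg 1 and -0.13, -0.03 and -0.82 in leg 2. The 3 leg 3 arrays agree to within 0.13 (SD) and lie below all of the others, with a difference of -1.48 ± 0.42 (adjusted p = 1.00). By comparison, 0.685% of the probes with all 9 values had leg 3 apart from both other legs.

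Among genes set higher in leg 3, Ance, which encodes a peptidase related to angiotensin-converting enzyme, had ratios of 0.41, 0.40 and 0.87 in leg 3, against -0.64, -0.72 and -0.70 in leg 1 and 0.27, -1.09 and -1.50 in leg 2. Leg 3 lay above the rest, but 1 leg 2 array came close to it. Ladybird late (lbl), a homeobox gene, was above the wing disc in all legs, at 5.22 ± 0.68 in leg 3, 4.09 ± 0.43 in leg 1 and 4.51 ± 0.33 in leg 2 (SD, n = 3 each). Its highest leg 2 array, at 4.89, lay above the lowest of leg 3, at 4.57. Pherokine 3 (Phk-3), which encodes a small secreted protein, averaged -1.62 ± 0.35 in leg 3, -2.41 ± 0.56 in leg 2 and -2.93 ± 0.83 in leg 1. Its highest leg 2 array, at -1.87, lay above the lowest of leg 3, at -2.02. The SPE ratio, for a protease that activates the Toll ligand, was 0.28, 0.38 and 0.33 in leg 3, against -0.34, -1.11 and -0.30 in leg 2. In leg 1 it was 0.32, -0.92 and -0.26, and the array at 0.32 lay above the lowest of leg 3. None of these genes passed the test.

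Genes with leg 1 apart from the other legs made up 1.13% of the probes with all 9 values, 32 above and 19 below. Among those above was achaete (ac), a proneural gene of the bristle pathway, with ratios of 1.24, 0.86 and 0.69 in leg 1, against 0.51, 0.40 and 0.42 in leg 2 and 0.65, 0.36 and 0.30 in leg 3. The lowest leg 1 array exceeded the highest of the rest by little, and the difference was 0.52 ± 0.29. Engrailed (en), the selector of the posterior compartment, had 1.62, 0.54 and 0.39 in leg 1, against 0.39, -0.19 and -0.16 in leg 2 and 0.36, -0.64 and -0.30 in leg 3, a difference of 0.87 ± 0.52. In both genes the highest value was that of leg 1 replicate 1, and without it the differences were 0.33 and 0.56. The sex comb and leg bristle list, which holds ac, had 15 of 22 genes tested in leg 1 against the others. None rose and none fell, and the median was -0.12, against -0.03 over all genes.

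Below the other legs in leg 1 were Lipid storage droplet-2 (Lsd-2), a coat protein of lipid droplets, with -1.93, -0.88 and -0.64 in leg 1, against -0.35, -0.31 and -0.34 in leg 2 and -0.50, -0.54 and -0.03 in leg 3, and alphaTub85E, a tubulin gene of developing muscle. AlphaTub85E had -1.27, -0.04 and -0.01 in leg 1, against 0.05, 0.41 and 0.12 in leg 2 and 0.53, 0.01 and -0.01 in leg 3. Outside leg 1 replicate 1 its values hardly parted from those of the other legs. Vestigial (vg), the selector of the wing, was far below the wing disc in every leg: -5.57, -9.98 and -5.77 in leg 1, -3.92, -4.35 and -5.18 in leg 2, and -5.42 and -5.18 in leg 3. Leg 1 minus leg 2 was -2.39 ± 0.90 (SE) for vg, with an adjusted p of 1.00. It was -1.12 within prefix 5 and -5.63 within prefix 6, and without leg 1 replicate 2, the array at -9.98, it was -1.13. In that comparison 4.39% of the probes with full values had non-overlapping arrays.

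In leg 2, sine oculis (so), which encodes the homeodomain partner of eya, had ratios of 1.23, 1.64 and 1.15, against 1.04, 0.93 and 0.54 in leg 1 and 1.12, 0.73 and 1.03 in leg 3. The leg 2 arrays were the highest by a small margin, 0.54 ± 0.24 above the mean of the others. The eya ratio did not share this pattern, since it was intermediate in leg 2. The uncNacbeta ratio was -0.35, -0.18 and -0.91 in leg 2, against -1.36, -1.90 and -1.40 in leg 1 and values between -1.77 and -0.98 in leg 3. Anachronism (ana), which encodes a glycoprotein secreted by glia, had 0.88, 1.13 and 0.57 in leg 2 and -0.24, -0.02 and 0.07 in leg 1, a difference for leg 1 minus leg 2 of -0.90 ± 0.20 (adjusted p = 0.532). Obst-B, for a chitin-binding protein, was lower in every leg 2 array (-0.19, -0.57 and -0.74) than in any leg 1 array (-0.12, 0.07 and 0.64) or leg 3 array (-0.02, 0.09 and 0.33), and did not pass. Over all probes with full values, 0.862% had leg 2 apart from both other legs, 21 above and 18 below. The share with leg 1 apart from leg 2 was 4.39%.

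**Figure D4:**
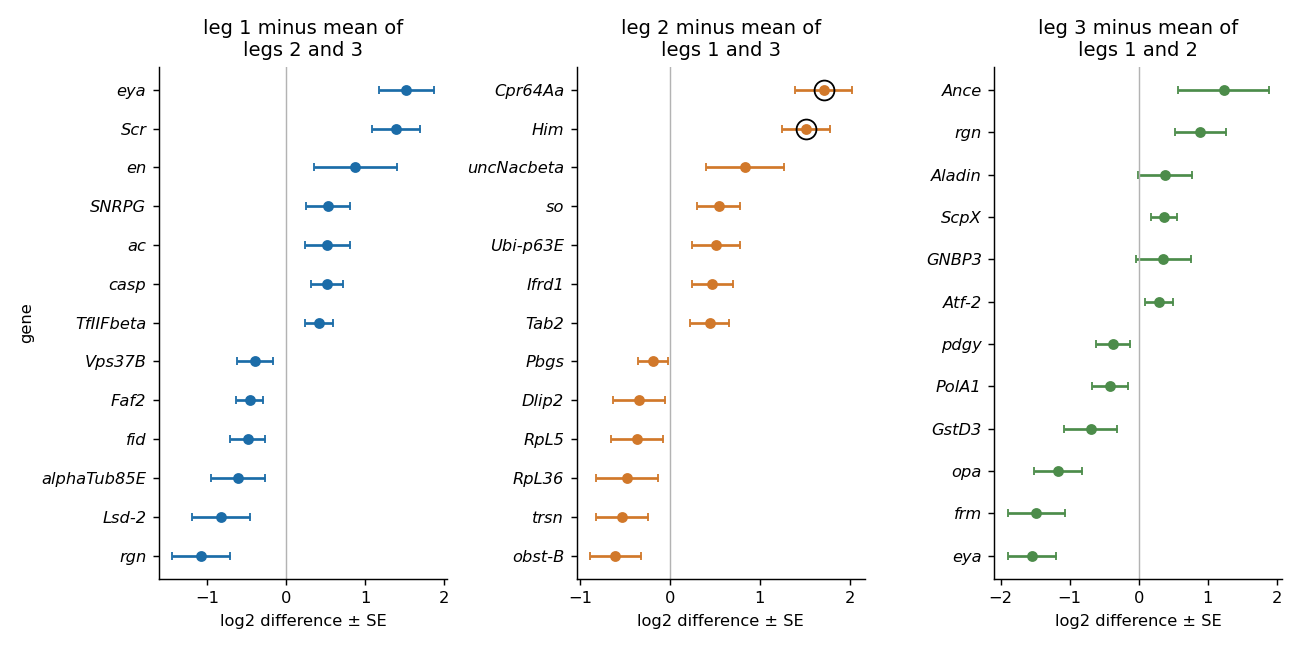
Log2 difference with its SE of each leg segment minus the mean of the other segments, for the genes named in that comparison, each row a gene. Rings mark the 2 called differences, Cpr64Aa at 1.71 and Him at 1.52 in leg 2. The other genes shown had an adjusted p over 0.05.

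Genes with the smallest p but missing values, or known only by a number, fall outside the naming rule and were chosen after their values were seen. Schlaff (slf), which encodes a secreted lectin-type protein needed for cuticle assembly, had 1.35, 1.98 and 2.18 in leg 1, against -0.90 and -1.90 in leg 2 and -1.68 and -1.74 in leg 3. Leg 1 was the one leg with more slf transcript than the wing disc, by 3.36 ± 0.68 over the mean of the others (adjusted p = 0.113). CG4382 had -5.99 and -7.06 in leg 1, against -3.53, -3.01 and -3.28 in leg 2 and -2.35, -3.05 and -2.91 in leg 3. CG9747 had -0.12, 0.95 and 0.75 in leg 1, against 1.27, 2.72 and 2.00 in leg 2 and 2.22, 2.57 and 1.88 in leg 3. Both were lower in all measured leg 1 arrays than in any other, with differences of -3.50 ± 0.69 for CG4382 and -1.57 ± 0.35 for CG9747 and adjusted p-values of 0.113. Of the probes with all 9 values, 1.13% had leg 1 apart from the other legs. CG4382 had no value on leg 1 replicate 2, and fewer arrays part more easily. For yellow-e3, of the yellow gene family, leg 1 had 0.61, 0.11 and -0.24, against -1.40 and -1.58 in leg 2 and -1.58 and -1.73 in leg 3.

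In leg 3, the neighbouring forkhead genes fd96Ca and fd96Cb, with no annotated gene between them in Release 6, ran together. The fd96Ca ratio was 4.10, 5.51 and 2.94 in leg 3, against 1.70 and 2.70 in leg 1 and 3.18 and 3.09 in leg 2, and that of fd96Cb was 6.43, 9.81 and 4.52 in leg 3, against 4.66 and 3.97 in leg 1 and 4.55 and 5.28 in leg 2. All were far above the wing disc, and the lowest leg 3 array of each overlapped the other legs. Leg 3 minus the mean of legs 1 and 2 was 1.51 ± 0.39 for fd96Ca and 2.25 ± 0.62 for fd96Cb (adjusted p = 1.00 for both). CG14191 had 1.77, 3.87 and 3.30 in leg 3, against 0.41, 0.20 and -0.32 in leg 2 and 0.60, 1.83 and 1.79 in leg 1, and leg 2 minus leg 3 was -2.99 ± 0.60 (adjusted p = 0.0718).

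The 4 arrays of a prothoracic leg against the reference measured leg 1 in other hybridisations, with no wing disc. The reference holds leg 1 RNA itself and RNA of females, and differences against it are therefore not the same quantity as those between segments. Limma called 1406 of 7912 probes there (17.8%), against none to 2 between segments. Of the 6 probes with the smallest p in leg 1 against the other legs, CG4382 passed on these arrays. It had -4.88, -1.09, -3.78 and -2.98 in leg 1 over the reference, a difference of -3.15 ± 0.43 (adjusted p = 0.000356), lower on 4 of 4 arrays. The slf values were 1.02, 0.84, 1.54 and 0.90, all above 0, with a difference of 1.03 ± 0.45 (adjusted p = 0.109), and those of CG9747 were -1.01, -0.50 and -0.46, all below 0 (adjusted p = 0.138).

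The Scr values of leg 1 over the reference were -0.28, -0.04, 0.03 and 0.01, on both sides of 0, with a difference of -0.12 ± 0.21 (adjusted p = 0.711). Cpr64Aa had -0.75, -0.13, -0.32 and -0.14, all below 0, a difference of -0.26 ± 0.21 (adjusted p = 0.380). Of the 13 genes named for leg 1 against the other legs and tested here, 11 had the same sign, and over all 4971 genes tested in both it was 62.9 percent. Lsd-2 (-1.06 ± 0.31, adjusted p = 0.0235), SNRPG, a core spliceosomal protein (1.40 ± 0.20, adjusted p = 0.000118), and TfIIFbeta, a general transcription factor (0.66 ± 0.13, adjusted p = 0.00179), passed with the sign they had between segments. Faf2 passed with the other sign, at 0.57 ± 0.12 over the reference and -0.47 ± 0.17 against the other legs. By comparison, 17.8% of all probes passed on these arrays. Of 77 tested cytosolic ribosomal protein genes, 40 passed as higher in leg 1, with a median of 0.58 against -0.02 over all genes. A pass against the reference alone therefore does not mark a gene of leg 1.

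**Figure D5:**
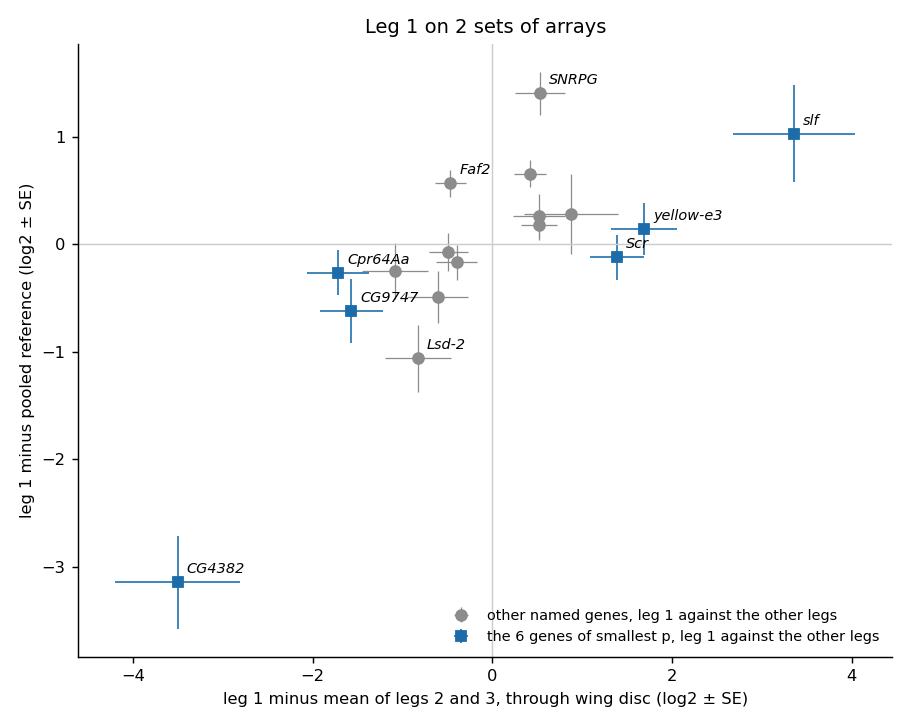
Leg 1 minus the pooled reference (vertical, 4 arrays) against leg 1 minus the mean of legs 2 and 3 through the wing disc (horizontal), as log2 differences with their SE. Blue squares are the 6 probes of smallest p between segments and grey circles the other genes named in that comparison. CG4382 and slf lie on the same side of 0 on both axes, and Scr is at -0.12 against the reference.

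Lists of axis, signalling and tissue genes held no further call between segments. Of 27 genes of the proximal-distal leg axis, 19 were tested in leg 1 against the other legs, and none rose or fell. The same held for 22 of 25 genes of the dorsal and ventral leg and for 24 of 28 genes of wing and notum identity, whose median difference was 0.01 against -0.03 over all genes. In leg 3 against the others, 22 of 34 Notch pathway genes were tested, 15 lay below 0 and none passed, with a median of -0.11 against 0.01 over all genes. Of the markers of other tissues, 2 of 17 fat body genes, 3 of 17 haemocyte genes, 12 of 18 tracheal genes and 1 of 13 salivary gland genes could be tested in each segment against the rest, and none passed. Most fat body, haemocyte and salivary gland genes therefore say nothing here.

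The cytosolic ribosomal protein genes differed between arrays more than between segments. Of 84 genes, 77 were tested in each comparison between segments and none passed. In leg 2 against the mean of the others 60 lay below 0, with a median of -0.06 against 0.03 over all genes. The median ratio of the 74 genes with all 9 values was 0.60, -0.34 and -0.03 on the leg 1 arrays, 0.17, -0.56 and 0.19 on those of leg 2, and 0.36, -0.15 and 0.23 on those of leg 3. In each segment the lowest value was that of the prefix 6 array. On leg 1 replicate 1 the ribosomal median was the highest of the 9 and the ecdysone response median (-0.55) and the tracheal median (-0.47) were the lowest. The part of these shifts in the differences of single genes was not tested.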

How the data were processed

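The deposited values are log2 ratios of spotted 2-colour arrays, computed by the authors, per the labels, which state for every array which sample was divided by which; the base of the logarithm was taken from the values. The authors' filtering and normalisation steps are not given in the sources used here. Since spot intensities were not used, signal over background is unknown. The 9 wing against leg arrays were deposited as leg over wing, per the labels, and were not turned; leg 1 against reference is given as leg 1 over reference. Every array was re-centred on its median over gene probes. Of 16505 probes, 144 were control spots. RefSeq Release 6 named 15366 of the rest; 486 matched several genes and 509 none.

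Least squares was run probe by probe on 39 arrays, with 11 coefficients and a term for which sample was probe 1. In place of lmFit, the variances were then moderated by limma 3.58.1 under R 4.3.3 (prior SD 0.2802 on 3.569 degrees of freedom; tables read by data.table, version 1.17.8), which keeps contrasts exact where values are missing. At least 2 arrays of each segment had to have a value. P-values are two-sided and Benjamini-Hochberg adjusted over the probes tested, with a threshold of 0.05. The script was tested on simulated data. Other steps used Python 3.11.15, pandas 2.3.3, numpy 2.4.6, scipy 1.17.1 and matplotlib 3.10.9.

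Genes named are Scr, Cpr64Aa, tested genes of the Hox and cofactor lists, called genes, and in each comparison those among the 6 highest and 6 lowest by moderated t with a symbol other than a number, full values and no overlap. A gene with several probes is represented by the one measured on most arrays. The members, lists and rule were chosen with earlier results of these data known. The series calls replicates independent; their numbers follow the order of deposit. Alternatives varied the arrays fitted, orientation term, centring, scaling, missing-value filter, probe averaging, slide prefix and single arrays.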

Additional observations from a re-analysis of the deposited data

Results flagged for a closer look

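Between segments, 3 differences passed limma's test. Cpr64Aa was lower in leg 1 than in leg 2, by -2.28 (log2), and higher in leg 2 than in the mean of legs 1 and 3, by 1.71. Him was higher in leg 2 than in the mean of the other legs, by 1.52. These are noted because 2 groups of arrays differed by a direct test of the difference. In the cuticle gene and the muscle progenitor gene, leg 2 was near the wing disc's level and legs 1 and 3 were below it. Both were called as higher in leg 2, so that leg 2 lies above the others was fixed by this choice. Leg 1 minus leg 3 was -1.15 for Cpr64Aa and 0.11 for Him, and neither passed. Among the 48 named genes with a value on all 4 arrays of leg 1 against the reference, lbl had 1 array far from the rest, at -0.14, where the others lay between 0.20 and 0.25. Chance alone marks about 1 in 20 such groups.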

How the results depend on the processing

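Of 83 differences of named genes, recomputed under the alternatives as 1525 values, 1485 kept their sign and their side of the threshold, 25 lost the call, 8 gained it and 7 changed sign. Only 3 of these differences were called in the main fit, and all 25 losses fell on them. The rest were not called to begin with, so their staying on that side says nothing of how firm the calls are. The sign changes were all near 0: Scr in leg 2 minus leg 3 (0.10 with the prefix as a block, and -0.127 to 0.0498 when single arrays were left out) and Cpr64Aa in leg 3 against the others (-0.0145 without the orientation term on 9 or 39 arrays, -0.11 with probes averaged, and -0.0261 to 0.0249 when single arrays were left out). The 9 arrays alone with the orientation term gave 0 calls for leg 1 minus leg 2 and 1 for leg 1 minus leg 3. They gave 1 for leg 1 and 0 for leg 2 against the others, and the gene called was CG4382 alone. Without that term the counts were 2, 3, 3 and 0, and the calls were CG4382, slf and eya, not Cpr64Aa or Him. With arrays scaled to one spread there were 3 for leg 1 minus leg 2, 3 for leg 2 minus leg 3, 5 for leg 1, 3 for leg 2 and 1 for leg 3 against the others. With 1 value per segment allowed there were 2, 3 and 6 for the pairs 1 minus 2, 1 minus 3 and 2 minus 3, and 3 for leg 2 and 1 for leg 3 against the others. Requiring every value gave 0 for leg 1 minus leg 2 and 1 for leg 2 against the others, and averaging probes gave 0 and 1; slides of prefix 5 alone gave 0 and 0, and the prefix as a block gave 1 for leg 2 against the others. Leaving out single arrays gave 0 to 2 calls for each pair of segments, 0 to 1 for leg 1 and for leg 2 against the others, and 0 to 2 for leg 3 against the others. The Scr excess in leg 1 then ran from 0.75 to 1.84, and was called without leg 1 replicate 1 alone. The Cpr64Aa call in leg 1 minus leg 2 was lost without any 1 leg 2 array, and could not be tested without leg 1 replicate 2 or 3. The Cpr64Aa call in leg 2 against the others was lost with the prefix as a block and with probes averaged. It was also lost without replicate 1 of leg 1 or 3 or any 1 leg 2 array. Without replicate 2 or 3 of leg 1 or 3 it could not be tested, so it held with no single array left out. The Him call was lost without any 1 array other than leg 1 replicate 3 or leg 3 replicate 3. TfAP-2 was called in leg 3 without leg 1 replicate 1, and fd96Ca and fd96Cb without leg 3 replicate 3. The cause of these changes was not tested. No paired analysis was possible because the labels give no replicate numbers; the slide prefix, which they do give, was used as a block instead. With 3 arrays a segment, many missing values and no intensities, small differences could not be detected.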
